A study of Mus musculus with 6 samples.

Results

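Cd300ld5, Ptprc, Siglec15 and Zc3h12a are 4 of the 44132 genes, counted by symbol or else by accession, measured on NimbleGen expression arrays. The RNA came from RAW264.7, an established macrophage-like cell line of the mouse, with and without interference against the immune receptor Tim-3. Cd300ld5, Ptprc and Siglec15 encode surface receptors of myeloid cells, and Zc3h12a encodes the ribonuclease Regnase-1. The arrays held 44170 targets, each identified by an accession, and a target was taken for a gene when its accession matched a transcript, symbol or synonym of that gene in the mouse RefSeq table. Of the 44132 genes, 1229 had a symbol. Every accession without a match was counted as a gene of its own, so a gene may be counted more than once. Shares of all genes below are therefore mostly shares of accessions. Each of the 4 genes was matched to 1 target of 3 probes, and further targets of these genes may lie among the accessions without a match. Cd300ld5 was matched through the transcript NM_001101657, Ptprc through NM_001111316 and Siglec15 through NM_001101038, while Zc3h12a was matched through BC036563, which the RefSeq table gives as a synonym.

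The 4 genes were chosen by values already known from this contrast, so their differences are given as a description and not as evidence. Cd300ld5 was selected on a limma adjusted p of 0.045 over all genes. Zc3h12a was selected on a limma adjusted p of 0.0175 over the targets present in the deposited series table, and its adjusted p over all genes was 0.074. Ptprc and Siglec15 came from lists of macrophage and osteoclast genes and had been seen not to pass.

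Both groups were RAW264.7 cells transfected with the vector pRNAi-U6H1 and grown in DMEM with heat-inactivated FBS, penicillin and streptomycin. In the knockdown group the vector carried Tim-3 siRNA, and in the control group it carried control siRNA. Each group had 3 arrays, described in the labels as biological replicates from separate cultures. Cells that stably expressed the Tim-3 siRNA were selected as clones with G418. The number of clones behind the cultures is not stated, so differences between clones and an effect of the siRNA cannot be told apart. The level of the targeted gene was not used here as a check of the labels.

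The deposited values are RMA intensities on a linear scale, and log2 differences below are knockdown minus control. Median intensities per array lay between 201.5 and 218.3, and the random-sequence probes, which match no transcript and serve as a background level, averaged 23.1 to 24.5. Control replicate 3 stood apart from the other arrays, with 390 genes at least 4-fold below every other array and 88 at least 4-fold above. Of 16 listed hepatocyte markers 4 were measured, and their summed intensity was 180 on control replicate 3 against 7269 to 9308 on the others. The marker with the lowest adjusted p, the plasma kininogen gene Kng1, had a log2 intensity of 4.51 there and 9.39 to 10.14 elsewhere. Of the macrophage identity genes 1 of 30 was measured, which was Ptprc, a gene of leukocytes in general, so the macrophage identity of the line was hardly checked by these lists, and the hepatocyte markers were bright on 5 arrays. The part of those transcripts in the results was not tested. None of the listed T-cell, B-cell, neutrophil and mast-cell markers was matched to a target, and Esrp1, an epithelial splicing factor, lay between 67.7 and 132.2 in intensity over the arrays.

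Myeloid cells sense their surroundings through paired receptors, in which related activating and inhibitory molecules share similar outer domains. Activating members signal through adaptors such as DAP12 that recruit the kinase Syk, and inhibitory members carry tyrosine motifs that recruit phosphatases such as SHP-1, SHP-2 and SHIP-1. CD45, the product of Ptprc, is the abundant receptor tyrosine phosphatase of leukocytes, and it controls the Src-family kinases that phosphorylate these motifs. Downstream of Toll-like and cytokine receptors, Regnase-1 cuts stem-loop structures in inflammatory transcripts such as Il6 and Il12b and so limits their lifetime.

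The groups did not overlap for 2 of the 4 genes, Cd300ld5 and Zc3h12a, and among all genes the knockdown arrays lay wholly above the control arrays for 12.1% and wholly below for 13%. The sequences before the annotated starts of these 2 genes are shown to set them side by side. They are from RefSeq, build GRCm38.p6, minus strand, 5′ to 3′. The Cd300ld5 stretch, chr11:115037781-115037940, covers bases 250 to 91 before the start and leaves out bases that lie inside the annotated gene. The Zc3h12a stretch, chr4:125127882-125128131, covers bases 250 to 1 before the start. Capitals mark 1 motif in each stretch, on either strand. In Cd300ld5 it is AGGAAGT, an extended form of the ETS core GGAA, bound by macrophage factors such as PU.1. In Zc3h12a it is the GC box GGGCGG, a sequence bound by Sp1. Only these exact letters are marked, and the shorter GGAA also occurs unmarked in both stretches, counting both strands.
Cd300ld5: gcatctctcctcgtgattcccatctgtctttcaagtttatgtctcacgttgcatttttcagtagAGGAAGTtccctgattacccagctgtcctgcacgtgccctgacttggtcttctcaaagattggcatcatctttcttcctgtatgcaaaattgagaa
Zc3h12a: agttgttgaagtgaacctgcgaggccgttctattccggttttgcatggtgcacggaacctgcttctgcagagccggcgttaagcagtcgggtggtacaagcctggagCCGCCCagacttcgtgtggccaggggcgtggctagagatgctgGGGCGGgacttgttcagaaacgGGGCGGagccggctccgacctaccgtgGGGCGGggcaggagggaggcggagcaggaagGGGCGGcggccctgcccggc

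The 2 stretches differed in base composition. G and C made up 44.4% of the Cd300ld5 stretch, against a median of 51.2% over the same bases of the 32851 starts in the RefSeq promoter table, and 66.4% of the Zc3h12a stretch, against a median of 52.4%. Cd300ld5 held 1 match to AGGAAGT and none to GGGCGG. Of all starts, 4.35% held AGGAAGT in the same window and 18.1% held GGGCGG. Zc3h12a held 5 matches to GGGCGG, which do not overlap, and none to AGGAAGT. In its window 32.7% of all starts held GGGCGG and 7.69% held AGGAAGT. Neither stretch held TATAAA, the NF-kB pattern GGNNTTTCC or the AP-1 pattern TGANTCA on either strand. In the Cd300ld5 window 7.66%, 3.09% and 4.35% of all starts held these 3 patterns, and in the Zc3h12a window 12.4%, 4.93% and 6.75%. These motifs were chosen with the sequences in view, and the arrays do not measure binding at them. Variants of these letters were not sought. The Cd300ld5 stretch ends 91 bases before the start used, where the annotated gene begins. The bases nearer that start lie inside the annotated gene, and patterns in them were not read.

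**Figure D1:**
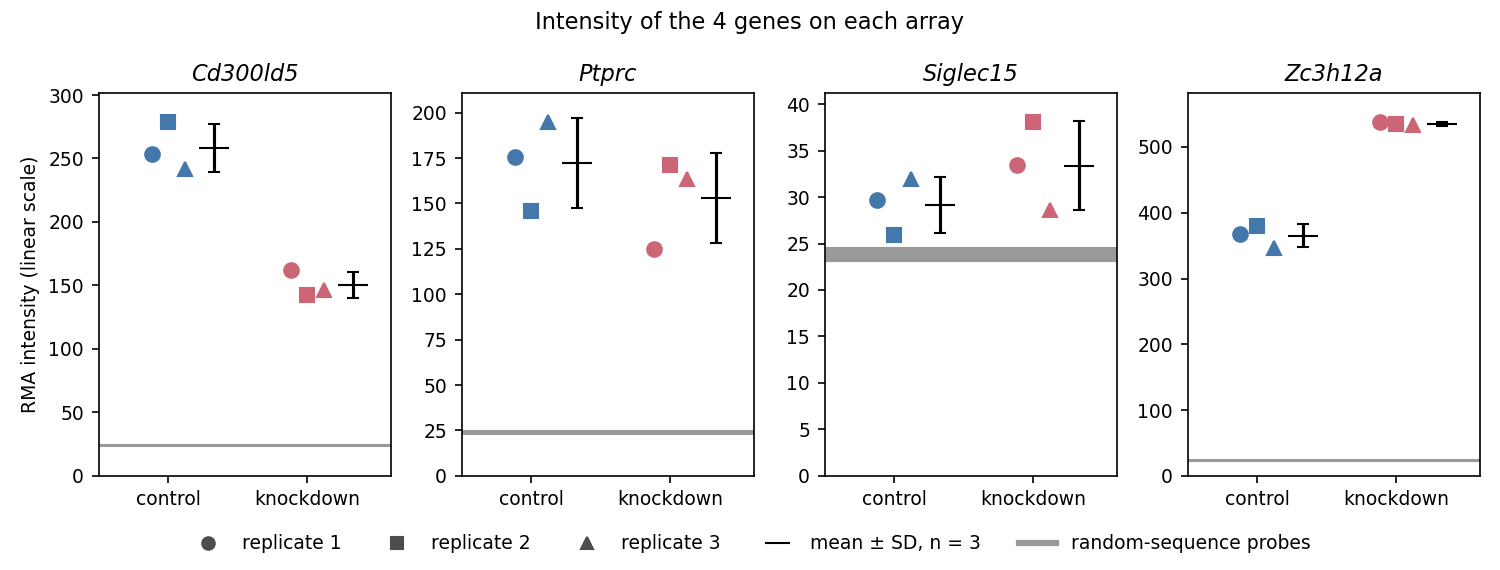
RMA intensity (linear scale, each panel starting at 0) of the 4 genes on the 3 control and 3 knockdown arrays, with the mean and SD of each group and the level of the random-sequence probes in grey. Control and knockdown arrays are apart for Cd300ld5 and Zc3h12a, they overlap for Ptprc and Siglec15, and Siglec15 lies close to the random-sequence probes.

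Cd300ld5 was lower on every knockdown array than on every control array. It belongs to the CD300 family of immunoglobulin-like receptors of myeloid cells, in which several near-identical genes lie side by side. Its intensity was 161.8, 142.2 and 146.6 on knockdown replicates 1, 2 and 3 and 253.7, 278.9 and 241.6 on control replicates 1, 2 and 3. Knockdown replicate 1 was the highest of its group and control replicate 3 the lowest of its own, and the gap between these 2 arrays was 0.58 on the log2 scale. Within a group the highest array exceeded the lowest by 13.8% in the knockdown and by 15.4% in the control.

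The mean log2 intensity of Cd300ld5 was 7.23 ± 0.10 (SD, n = 3) in the knockdown and 8.01 ± 0.11 in the control. The difference was -0.78 (SE 0.12, 95% interval of limma -1.07 to -0.49), a level 1.72-fold higher in control cells. By limma 0.709% of all genes were called lower and 0.503% higher at an adjusted p under 0.05, and 5.8% of all genes differed by more in either direction. The difference was -0.83 without control replicate 3, so it was as large without that array. No call remained when any 1 of the 6 arrays was left out, with limma adjusted p between 0.094 without control replicate 3 and 0.16 without knockdown replicate 2, nor with the replicate number as a block (adjusted p = 0.20).

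Cd300ld5 was the only 1 of 12 listed CD300 genes that could be matched to a target. Which of its relatives its 3 probes can also bind is not stated, so the value may include transcripts of neighbouring family members.

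Zc3h12a was higher on every knockdown array than on every control array. Its intensity was 538.3, 534.5 and 533.0 on knockdown replicates 1, 2 and 3, which differed from each other by at most 0.994%. On control replicates 1, 2 and 3 it was 367.7, 380.5 and 345.9. Control replicate 2 was the highest control array, and it lay 0.49 on the log2 scale below the lowest knockdown array.

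The mean log2 intensity of Zc3h12a was 9.06 ± 0.01 (SD, n = 3) in the knockdown and 8.51 ± 0.07 in the control. The difference was 0.55 (SE 0.10, 95% interval of limma 0.30 to 0.81), a level 1.47-fold higher in the knockdown, and 13.5% of all genes differed by more in either direction. Its pooled within-group SD of 0.050 was among the smallest on the arrays, with 1.3% of genes below it and a median of 0.220 over all genes. For Cd300ld5 the pooled SD was 0.101, with 12.7% of genes below it. The difference in Zc3h12a was 0.52 without control replicate 3.

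Whether Zc3h12a passed the limit depended on the targets in the fit, on the variance model and on the offset before the log. Its limma adjusted p was 0.074 over all 44132 genes, 0.0175 over the 27503 genes of the series table and 0.0089 over the genes at or above the median level. Among the genes of that table, 2.69% were called higher and 3.88% lower. Its difference was 0.55 in each of these fits, since the values are the same and only the pooled variance and the adjustment change. Over all genes it also passed with trend and robust fitting (limma adjusted p = 0.0235) and with log2(value + 50) (adjusted p = 0.0285). With any 1 array left out its adjusted p over all genes lay between 0.18 and 0.21.

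**Figure D2:**
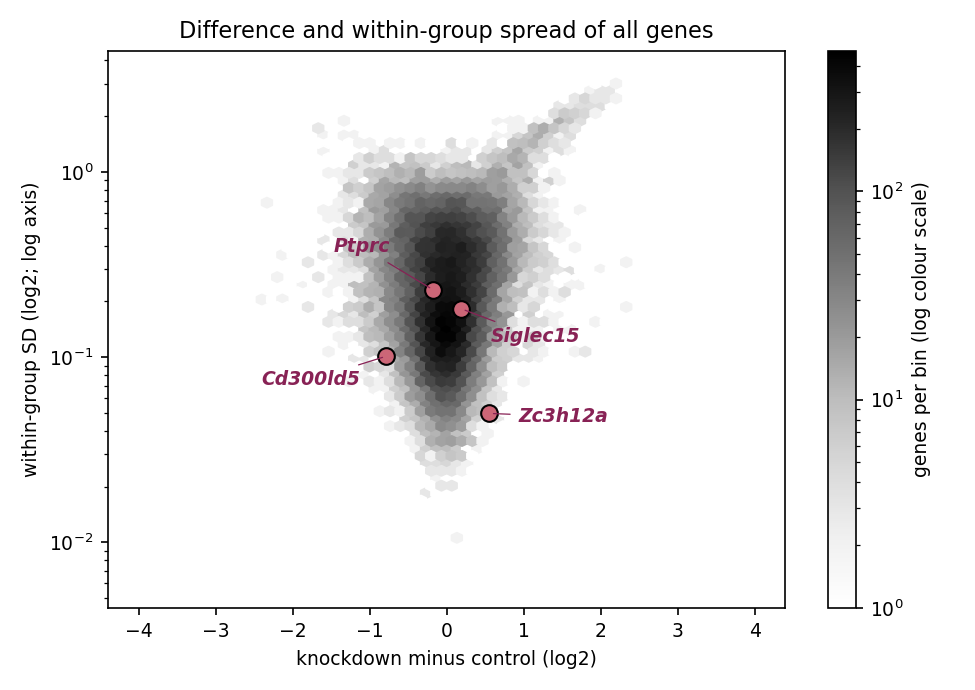
Difference between groups (knockdown minus control, log2) against the pooled within-group SD (log2 units, log axis) for all 44132 genes, shaded by the number of genes, with the 4 genes in red. Cd300ld5 (-0.78, SD 0.101) and Zc3h12a (0.55, SD 0.050) lie at the edge of the cloud, and Ptprc and Siglec15 lie in its dense part.

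Ptprc, which encodes CD45, had overlapping groups. Its intensity was 124.7, 171.3 and 163.4 on knockdown replicates 1, 2 and 3 and 175.8, 145.7 and 195.0 on control replicates 1, 2 and 3. The lowest value of all was on knockdown replicate 1, and control replicate 2 lay below knockdown replicates 2 and 3. The highest array of a group exceeded the lowest by 37.4% in the knockdown and by 33.8% in the control.

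The mean log2 intensity of Ptprc was 7.24 ± 0.25 (SD, n = 3) in the knockdown and 7.42 ± 0.21 in the control, a difference of -0.17 (SE 0.18, 95% interval of limma -0.61 to 0.26). The difference was within the spread of the arrays, and 58.5% of all genes differed by more. It was -0.03 without knockdown replicate 1 and -0.08 without control replicate 3, and -0.29 without control replicate 2. The interval includes no difference and also a fall of 0.61, so equal levels were not shown. Its intensity was 5.08 to 7.95 times that of the random-sequence probes of the same array. The target stands for 1 transcript of a gene whose alternative exons give several CD45 isoforms, and whether its probes tell these apart is not stated.

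Siglec15, a sialic acid-binding lectin that signals through DAP12 and takes part in the fusion of precursors into osteoclasts, was close to background on all arrays. Its intensity was 33.5, 38.1 and 28.6 on knockdown replicates 1, 2 and 3 and 29.7, 25.9 and 31.9 on control replicates 1, 2 and 3. These values were 1.12 to 1.55 times those of the random-sequence probes, no array reached 100, and fits on the series table did not include the gene. The groups overlapped, with knockdown replicate 3 below control replicates 1 and 3.

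The log2 difference in Siglec15 was 0.19 (SE 0.15, 95% interval of limma -0.18 to 0.56), from 4.86 ± 0.15 (SD, n = 3) in the control to 5.05 ± 0.21 in the knockdown. Over the arrays left out one at a time it lay between 0.09 without knockdown replicate 2 and 0.30 without knockdown replicate 3. No difference in Siglec15 was detectable with these 6 arrays.

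None of the 4 genes reached the 2-fold change that the study set as its screening limit, which 2.84% of all genes reached in either direction. The median log2 difference over all genes was 0.01 and the median of its size was 0.22. The sign of the difference was the same in all alternative fits that could be made, 14 for Cd300ld5, 14 for Ptprc, 13 for Siglec15 and 15 for Zc3h12a. Much of this was fixed in advance, so it is no test of the differences. Several of these fits return the same difference by construction. For Cd300ld5 and Zc3h12a, whose groups did not overlap, leaving out an array could not change the sign. The difference ranged from -0.84 to -0.62 for Cd300ld5 and from 0.50 to 0.59 for Zc3h12a.

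**Figure D3:**
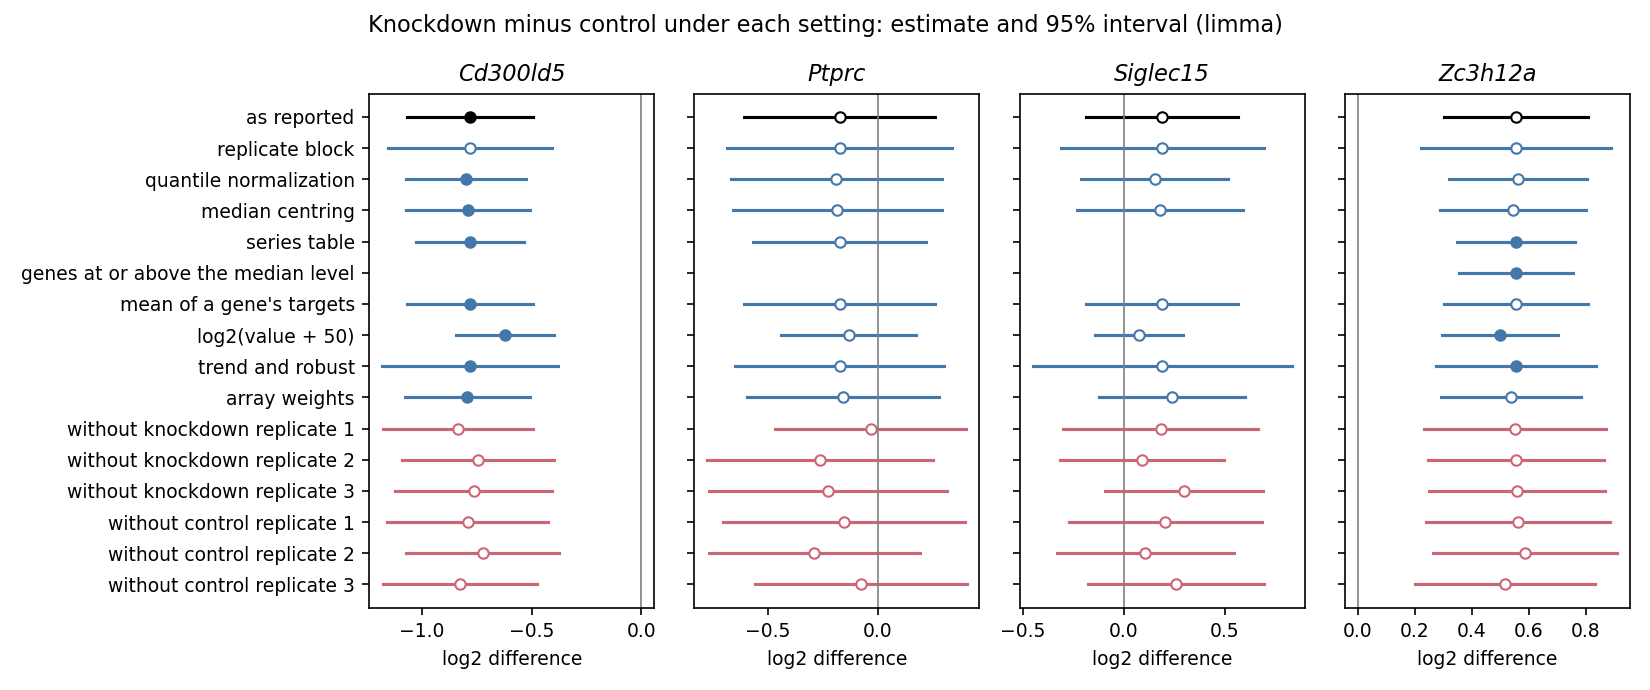
Log2 difference (knockdown minus control) with its 95% interval by limma for each gene as reported (black), under up to 9 other settings (blue) and with each array left out (red), where filled points have an adjusted p under 0.05. The intervals of Cd300ld5 and Zc3h12a stay on one side of 0 while all their red points are open, and those of Ptprc and Siglec15 include 0 in every fit.

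The signalling partners of these receptors were read by 4 of 33 listed genes, and none of them passed the test. Card9, the adaptor that links Syk-coupled receptors to NF-kB, had intensities of 596.7, 548.8 and 607.5 in the knockdown and 688.1, 766.1 and 731.8 in the control. All knockdown values of Card9 lay below all control values, and the mean differed by -0.32 (SE 0.11), with an adjusted p of 0.23 by limma. Lyn, a Src-family kinase that CD45 regulates, differed by 0.31 (95% interval -0.28 to 0.90), with its lowest intensity, 82.8, on control replicate 3. Ptpn11, which encodes SHP-2, differed by -0.09 (-0.40 to 0.22), and Inpp5d, which encodes SHIP-1, by 0.00 (-0.30 to 0.29). The intervals of both exclude a 1.5-fold change in either direction. The gene of SHP-1, also a phosphatase of inhibitory receptors, was not among the 4 that were read.

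Among related receptors, Cd33, the other measured member of the Siglec family of 9 listed, was at 1492.7 to 1718.3 in the knockdown and 1480.1 to 1850.1 in the control. Its groups overlapped fully, with a difference of -0.04 (95% interval -0.37 to 0.28). Clec4a1, a C-type lectin receptor of myeloid cells, differed by -0.09 (-1.08 to 0.90), with intensities from 70.0 to 187.1 over the 6 arrays and a wide spread in both groups. No Fc receptor of 11 listed and no other receptor tyrosine phosphatase of 21 listed was matched to a target.

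Around Regnase-1, the list of its relatives, partners and regulators held 26 genes, of which Rc3h2 was measured beside Zc3h12a. Rc3h2 encodes roquin-2, an RNA-binding protein that recognises similar stem-loops, and it differed by 0.06 (95% interval -0.27 to 0.39). Its intensities, 798.3 to 998.3 in the knockdown and 827.7 to 938.1 in the control, overlapped. None of the transcripts listed as Regnase-1 targets other than Zc3h12a itself, and none of the 42 listed genes of the Toll-like receptor and NF-kB pathway, was matched, so no target of the ribonuclease could be read beside it.

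Of the 21 osteoclast genes listed with Siglec15, Acp5 and Tfe3 were measured as well. Acp5, the tartrate-resistant acid phosphatase, differed by -0.27 (95% interval -0.67 to 0.13) on its brighter target and by -0.31 (-0.79 to 0.16) on its second target. On both targets control replicate 3 was the lowest control array and lay within the range of the knockdown arrays. Tfe3, a transcription factor of the MiT family, had intensities of 6345.1, 7880.0 and 6772.7 in the knockdown and 4649.0, 5848.0 and 5835.5 in the control, and differed by 0.36 (SE 0.15), with an adjusted p of 0.30 by limma. Its groups did not overlap, as for Card9, while among all genes 12.1% lay wholly above in the knockdown and 13% wholly below.

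Together these 9 genes of the receptor, signalling, Regnase and osteoclast lists held 0 that passed limma over all genes, where 0.503% of all genes were called higher and 0.709% lower, so a count of 0 in 9 is near the background. Of the 9, 1, Card9, had an unadjusted p under 0.05, which 17% of all genes had. The groups did not overlap for 2 of the 9, Card9 and Tfe3. Among all genes they did not overlap for 12.1% higher and 13% lower, so that count is near the background too. None passed in any of the alternative fits. Their median log2 difference was -0.04 against 0.01 over all genes, and 3 of the 9 had a higher mean in the knockdown.

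**Figure D4:**
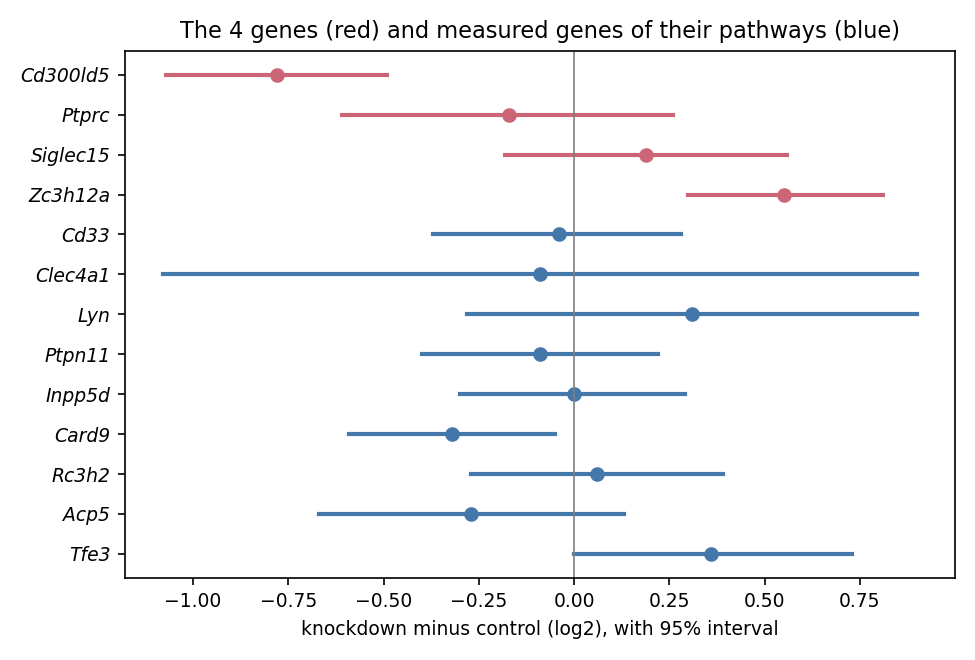
Log2 difference (knockdown minus control) with its 95% interval by limma for the 4 genes (red) and the 9 other measured genes of their lists (blue). Of the blue intervals only that of Card9 leaves out 0.

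The genes with a symbol whose course over the 6 arrays was most like that of each gene were found by the root mean squared difference of log2 values, after each gene was centred on its own mean. For Cd300ld5 they were Psd3, an exchange factor for Arf6 (0.110), and Myof, a ferlin of membrane repair (0.123), and 70 of all genes were as close as Psd3. Psd3 lay at 7.92 to 7.99 in the knockdown and 8.61 to 8.69 in the control on the log2 scale. For Zc3h12a they were Lyrm4, a factor of iron-sulphur cluster assembly (0.053), and Ssty2, a gene of the Y chromosome (0.059), whose log2 intensities of 4.73 to 5.51 were near background. Lyrm4 lay at 11.14 to 11.20 in the knockdown and 10.62 to 10.77 in the control. With Lyrm4 itself counted, 17 of all genes were at least as close to Zc3h12a.

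For Ptprc the closest genes with a symbol were Zfp458, a zinc finger gene (0.077), and Dclk3, a kinase gene (0.108). Of all genes, 36 were at least as close as Zfp458 and 169 as Dclk3, each counted with itself. For Siglec15 the closest genes with a symbol were Lsm2, of the RNA-binding Sm-like proteins (0.047), and the predicted gene Gm7137 (0.048). By the same count 10 of all genes were at least as close as Lsm2 and 11 as Gm7137. Ptprc itself varied around its mean by 0.207 and Siglec15 by 0.177 by the same measure.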

How the data were processed

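The RNA of 6 RAW264.7 cultures, labelled with Cy3, was read on 1-colour NimbleGen arrays. The deposited intensities come from RMA, as listed without version or settings in the submitters' processing notes. Quantile normalization, if it was part of RMA here, takes away any shift shared by all genes. The number of probes per target was taken from the deposited array tables. The deposited series table held 27526 of the targets, each of which reached an intensity of 100 on 3 or more arrays.

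Of 44170 targets, 1267 (2.87%) matched 1229 symbols of the RefSeq table for GRCm38.p6, which was used for names and the sequences shown. A gene's brightest target stood for it. Log2 intensities of the 6 arrays were compared with limma 3.58.1 in R 4.3.3 (lmFit, eBayes, no block, two-sided, Benjamini-Hochberg over all 44132 genes, limit 0.05). The fit was also run on simulated data with independent normal noise. No simulated array stood apart, so that run does not cover an array such as control replicate 3. Figures used matplotlib 3.10.9.

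The 4 genes and the gene lists were chosen with earlier results of these data known. Named beside them were all measured genes of the receptor, signalling, Regnase and osteoclast lists, of other lists those past the test or else the lowest adjusted p, and the 2 closest genes by symbol. Alternatives were a replicate block, quantile normalization, median centring, the series table, genes at or above the median level, the mean of targets, log2(value + 50), trend and robust fitting, array weights and each array left out. Same-numbered arrays' deviations from group means correlated at -0.026, -0.011 and 0.00, so the numbers were not taken as pairs. The files used give no slide or scan date. The precision is limited by the number of arrays, 3 in each group.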

Additional observations from a re-analysis of the deposited data

How the results depend on the processing

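With the replicate number as a block, 0 genes were called higher and 0 lower by limma, with 3198 and 3335 at an unadjusted p under 0.05, and Cd300ld5 kept its difference of -0.78 with an adjusted p of 0.20. The deviations of same-numbered arrays gave no pairing. The counts of 222 higher and 313 lower genes became 739 and 1067 in the series table, 1092 and 1401 under trend and robust variance fitting, 584 and 832 when 50 was added before the log, and 947 and 1242 among genes at or above the median level. They ranged from 0 to 117 higher and from 1 to 109 lower with one array left out. Array weights, the mean of targets, median centring and quantile normalization left both counts within 1.5 times. Fewer genes or arrays enter some of these fits by construction. Otherwise the cause was not tested.

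Cd300ld5 passed in 7 of 14 alternatives. With one array left out its difference ranged from -0.84 to -0.72, and none of these 6 fits passed. Zc3h12a, not called over all genes, passed in 4 of 15, at 0.55 in the series table, among genes at or above the median level and with trend and robust fitting, and at 0.50 with log2(value + 50). Ptprc (adjusted p 0.53 to 0.95) and Siglec15 (0.45 to 0.83) passed in none. Siglec15 had no value in the series table, and Cd300ld5, Ptprc and Siglec15 had none among genes at or above the median level. Another background correction could not be run on summarised values.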

Other observations

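Another 20 immune cell surface molecules were read by symbol, a list made after the names of the measured genes, but not their values, had been seen. It includes Cd33 and Clec4a1. By limma over all genes 0 of the 20 passed, against 0.503% of all genes called higher and 0.709% lower, and none passed in any alternative fit. An unadjusted p under 0.05 was found for 3 of the 20 and for 17% of all genes, so these counts are near the background. Their median log2 difference was -0.04 against 0.01 over all genes. Cd72, an inhibitory lectin-like receptor of B cells and macrophages, was bright and even, with intensities of 6454.3 to 7287.0 in the knockdown and 6564.2 to 7309.5 in the control and a difference of -0.02 (95% interval -0.30 to 0.25). Ifnar2, a chain of the type I interferon receptor, differed by -0.20 (-0.57 to 0.17).

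The genes with an unadjusted p under 0.05 were named after their values were seen. Ulbp1, a ligand of the NK-cell receptor NKG2D, had intensities of 652.0, 659.2 and 765.3 in the knockdown and 920.2, 909.7 and 802.5 in the control, a difference of -0.34 (SE 0.13, limma adjusted p = 0.25). Vtcn1, the B7 family inhibitor B7-H4, differed by 1.01 (SE 0.21, adjusted p = 0.097), and Btnl6, of the butyrophilin-like family, by -0.69 (SE 0.24, adjusted p = 0.23). Vtcn1 and Btnl6 stayed under an intensity of 100 on all arrays.

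Also named after their values were seen, Klrb1, a lectin-like receptor of NK cells, had an intensity of 527.1 on control replicate 3 and 15.4 to 32.9 on the other 5 arrays. Vsig4, a complement receptor of tissue macrophages, was lowest on control replicate 3, at 28.2 against 93.4 to 175.0 elsewhere. Both differences between groups move with that array, and its part in them was not tested. Cd300ld5, Ptprc, Siglec15 and Zc3h12a on control replicate 3 differed from the mean of the other control arrays by -0.14, 0.28, 0.20 and -0.11 on the log2 scale.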
